A study of Gallus gallus with 6 samples.

Results

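Genes with the longest genomic spans were followed over 3 conditions of the chicken embryo neural tube. The span of a gene was taken as the distance from the start of its first exon to the end of its last, introns included, and the 300 longest were kept among 16233 genes that do not lie on the sex chromosomes Z and W, out of 17108 genes in all. The rule used the gene annotation alone and no expression value. RNA-Seq was performed on cells that carried GFP, sorted 18 h after in ovo electroporation of the trunk neural tube at Hamburger and Hamilton stage 11 (HH11). Control embryos received the empty vector pCIG (2 µg/µl), MEK1ca embryos received pCIG-MEK1ca (1 µg/µl) with pCIG (1 µg/µl), and MEK1ca + HOXB8 embryos received pCIG-MEK1ca (1 µg/µl) with pCIG-HoxB8 (1 µg/µl), with 2 libraries per condition. MEK1ca is a constitutively active form of MEK1, the kinase that activates ERK1/2, and HOXB8 is a homeodomain transcription factor. Each library came from a pool of embryos of unstated sex. All vectors express GFP, so a sorted cell of MEK1ca + HOXB8 is known to carry GFP, while its carrying both transgenes is assumed. HOXB8 alone was not analysed here. The libraries of pCIG and MEK1ca are labelled as reanalysed and those of MEK1ca + HOXB8 are not, so in every comparison with MEK1ca + HOXB8 the origin of the libraries and the condition cannot be told apart.

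A long-span gene is mostly intron. RNA polymerase II has to travel the whole span before an mRNA is complete, so transcription of such a gene takes longer than that of a compact gene, and splicing joins exons that lie far apart. In mammals, genes of this kind are enriched for cell adhesion molecules, axon guidance receptors, ion channels and synaptic proteins, and they are known for their use in the nervous system. The files identify genes by Ensembl identifier and position and do not pair them with symbols. No function is therefore attached to a gene here, genes are given by their position on the chicken assembly galGal4, and the levels of MEK1, HOXB8 and the markers of neural tube cells were not tested.

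Spans ran from 195.812 kb to 802.393 kb with a median of 274 kb, against a median of 8.796 kb for the other genes. Of the 300 genes, 42 reached 400 kb and 15 reached 500 kb. The 2 shortest genes kept were 196.007 kb and 195.812 kb long, and the next 2, left out, were 195.592 kb and 195.544 kb long, so the limit falls within a continuous series of lengths. A median long-span gene had 17 separate exon segments (range 4 to 144), whereas the other genes had a median of 7. Exonic length had a median of 4433.5 bases (range 417 to 27641) and was 1779 bases in the other genes. Exons made up a median of 1.47% of the span. The largest gap between exons had a median of 98.3 kb, or 33.0% of the span, and in 56 genes it took more than 50% of the span. The gene with the largest gap, 246.936 kb, lies on chromosome 1 and spans 263.373 kb with 6 exon segments. The gene with the most exon segments, 144, lies on chromosome 3, spans 273.627 kb and has the greatest exonic length of the 300, 27641 bases.

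The long-span genes were not spread over the chromosomes as the other genes were. Chromosomes 1 to 5, the large chromosomes of the chicken, held 209 of the 300 (69.7%) and 44.4% of all genes outside Z and W. Chromosomes 6 to 10 held 48, the smaller chromosomes held 42 (14% against 32.4% of all genes), and 1 lay on an unplaced scaffold. Strands were nearly even, with 158 genes on the plus strand and 142 on the minus strand. In 80 genes another annotated gene lay wholly inside the span. In 9 genes an exon overlapped an exon of another gene, in 3 of them on the same strand. How the counting treated strand is not given in the sources used here, so for these 9 genes reads of the partner gene cannot be told apart from their own.

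Most long-span genes were transcribed in these neural tube cells. A gene was called expressed when both libraries of at least 1 condition reached 1 CPM (counts relative to the library total, scaled by edgeR's trimmed mean of M values, TMM), silent when all 6 libraries were under 0.1 CPM, and low otherwise. By this rule 267 of the 300 (89.0%) were expressed, 31 were low and 2 were silent. Of the other 15933 genes outside Z and W, 67.4% were expressed, 2334 were low and 2860 (18.0%) were silent. This contrast was not particular to the 300, as 87.3% of the next 300 genes by span were expressed and 8 were silent. When all genes outside Z and W were cut into 10 classes of equal size by span, the share of expressed genes was 9.85% in the shortest class and 89.5% in the longest, and the share of silent genes was 69.5% and 1.97%. The shortest class held genes with spans of 35 to 589 bases. The paper describes purification of poly-A mRNA, and the type of gene in each class was not tested. Longer genes also had longer exons in sum, and a gene with more exonic bases yields more fragments per transcript. With 1 TPM (the transcript level per exonic length, relative to the library) in place of 1 CPM, 254 of the 300 (84.7%) and 69.9% of the other genes were expressed.

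**Figure D1:**
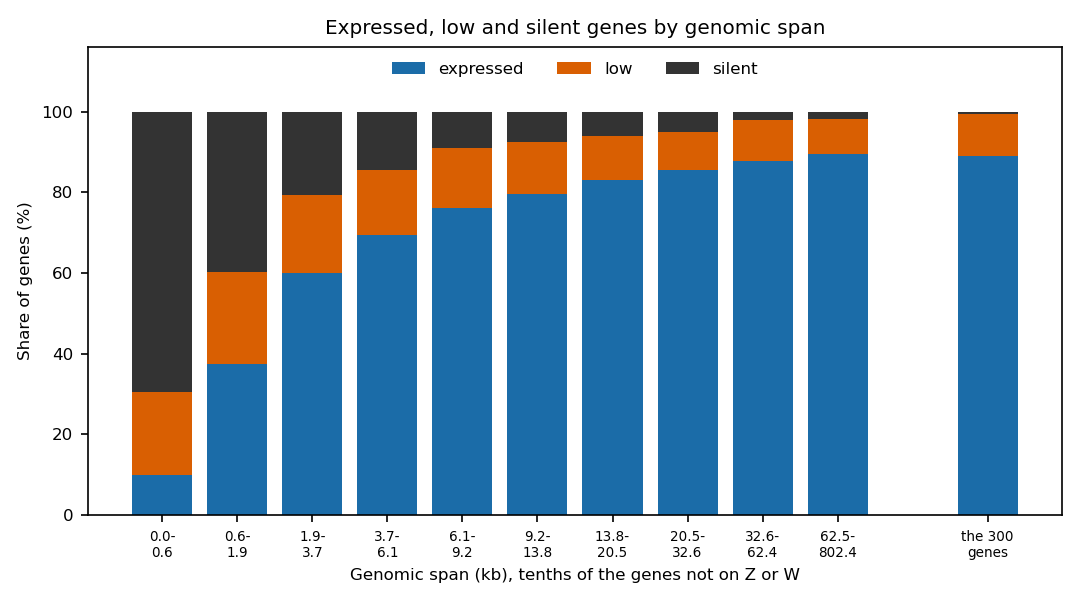
Share of genes (%) that were expressed, low or silent, for genes not on Z or W in 10 classes of genomic span (kb, lowest and highest span of each class under its bar) and, at the right, for the 300 long-span genes. The expressed share rises from 9.85% in the shortest class to 89.5% in the longest, and is 89.0% in the 300 genes.

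Both silent genes were barely or never counted. The first lies on chromosome 4, spans 271.109 kb and has an exonic length of only 481 bases. It had no count in the pCIG and MEK1ca libraries and 1 and 2 counts in the MEK1ca + HOXB8 libraries. The second lies on the unplaced scaffold, spans 220.9 kb, has 2476 exonic bases and had no count in any library. A count of 0 allows up to 3 counts, which is 0.0318 to 0.0489 CPM depending on the library, and this limit covers counting error only. Another gene, on chromosome 8 with a span of 246.355 kb and 614 exonic bases, had 4 to 11 counts per library and was low. These 3 genes did not pass the filter on low counts, so 297 of the 300 were tested.

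The 31 low genes had mean levels of 0.0939 to 1.08 CPM. They included the second longest gene of the series, on chromosome 1 (188459667 to 189196267, 736.6 kb). Its levels were 0.131 and 0.246 CPM in pCIG, 0.147 and 0.372 CPM in MEK1ca, and 0.223 and 0.418 CPM in MEK1ca + HOXB8, so the conditions overlapped. Low genes had spans from 198 kb to 737 kb, as the plot of level against span shows. Among the 14 genes with a mean under 0.5 CPM were both silent genes.

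**Figure D2:**
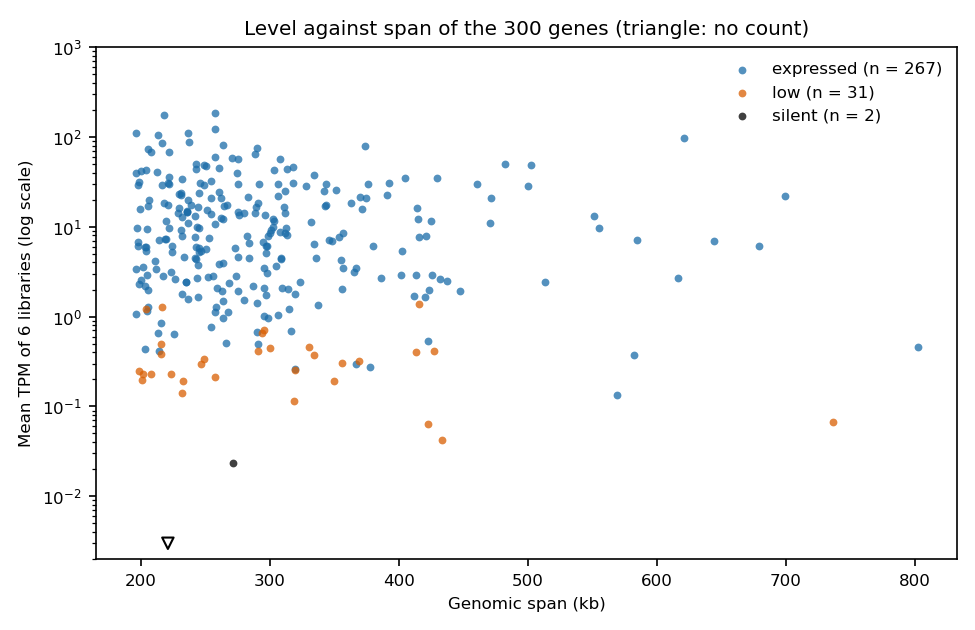
Mean level over the 6 libraries (TPM, log scale) against genomic span (kb) of the 300 long-span genes, coloured as expressed (267), low (31) or silent (2). The triangle at the bottom marks the gene with no count in any library.

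Most long-span genes were expressed in every condition. Both libraries reached 1 CPM for 254 genes in the pCIG condition, 253 in the MEK1ca condition and 265 in the MEK1ca + HOXB8 condition. In all 3 conditions 247 genes were expressed, 11 were expressed in 2 conditions and 9 in 1 condition. Of these 9, 8 were expressed in MEK1ca + HOXB8, 1 in pCIG and 0 in MEK1ca. Of the other 15933 genes outside Z and W, 601 were expressed in 1 condition, and their split by condition was not counted. In pCIG, MEK1ca and MEK1ca + HOXB8, 63.2%, 63.3% and 66.2% of the other genes were expressed. The share was thus highest in MEK1ca + HOXB8 there too. No long-span gene went from under 0.1 CPM in both libraries of a condition to expressed in another. Hardly any could have, as only 2, 3 and 3 genes were under 0.1 CPM in both libraries of pCIG, MEK1ca and MEK1ca + HOXB8. Each of these counts includes the 2 silent genes. Most of the 8 genes lay close to 1 CPM elsewhere, and 2 of them passed the test in MEK1ca + HOXB8 versus MEK1ca at the threshold set out below. The first, on chromosome 1 (107601010 to 107978889, 378 kb), had 0.222 and 0.376 CPM in pCIG, 0.293 and 0.478 CPM in MEK1ca, and 2.12 and 1.87 CPM in MEK1ca + HOXB8. The second, on chromosome 4 (22250827 to 22516765, 266 kb), had 1.07 and 0.830 CPM in pCIG, 0.310 and 0.504 CPM in MEK1ca, and 3.44 and 2.28 CPM in MEK1ca + HOXB8. For both genes the MEK1ca + HOXB8 libraries stood above all others, which follows largely from how these genes were chosen.

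Per unit of exonic length, the mRNA levels of long-span genes were moderate. The median TPM was 6.91 in the 300 and 9.71 in the other genes, silent ones included. It was 11.7 in the next 300 genes by span. The upper quartile was 19.9 TPM in the 300 and 47.1 TPM in the other genes. Of the 300, 251 reached a mean of 1 TPM, 120 reached 10 TPM and 6 reached 100 TPM. The highest level belonged to a gene on chromosome 6 (14667844 to 14924979, 257 kb), with a mean of 182 TPM. Its levels were 102 and 115 CPM in pCIG, 114 and 103 CPM in MEK1ca, and 105 and 103 CPM in MEK1ca + HOXB8, and the conditions overlapped. The next were a gene on chromosome 20 (1643850 to 1862123, 218 kb, 177 TPM) and a gene on chromosome 8 (18794148 to 19051645, 257 kb, 121 TPM). The gene on chromosome 20 is among the 9 with an overlapping exon and holds 6 other genes inside its span. None of these 3 genes passed the test in any comparison.

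All 300 genes together took about 1% of the counts. The pCIG libraries gave them 1.11% and 1.11%, the MEK1ca libraries 1.14% and 1.11%, and the MEK1ca + HOXB8 libraries 0.998% and 1.10%. The lowest share, in MEK1ca + HOXB8 replicate 1, stood apart from its own replicate more than the conditions stood apart from each other. With 2 libraries against 2 the exact two-sided permutation test cannot give a p below 0.333, so this share was not tested. Within MEK1ca + HOXB8, 200 of the 297 genes (67.3%) were higher in replicate 2 than in replicate 1, against 50.5% of the other genes tested, with a median log2 ratio of 0.13. The same median was 0.04 in pCIG and -0.02 in MEK1ca. The long-span genes therefore lay lower as a group in 1 of the libraries of MEK1ca + HOXB8. This was not particular to them, as the next 300 genes by span had a median log2 ratio of 0.155 in that condition. The comparisons with MEK1ca + HOXB8 are also given without each of its libraries.

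Total counts lay between 63637195 and 90460770 per library, and 242 of the 300 genes had at least 100 counts in each library. TMM factors lay between 0.964 and 1.05, and the common biological coefficient of variation was 0.126. Low counts (1 to 10) were even in 99.4% of cases in MEK1ca replicate 2 and in 51.8% to 57.0% elsewhere. The reason was not tested, and when its counts were halved the calls were nearly the same, as given with the limits at the end. Halving all counts of a library leaves its scaled levels almost unchanged, so this cannot show whether the even counts affect the results otherwise. The replicates are separate RNA samples, each from pooled embryos, and p-values set a difference between conditions against the spread between such pools. That spread is estimated from all 3 conditions and drawn toward that of other genes. In cells sorted in bulk, fewer cells of a type and less RNA per cell cannot be told apart.

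Each comparison was made with edgeR's quasi-likelihood F test over all 13582 genes that passed the filter on low counts, with Benjamini-Hochberg adjustment over all of them. A gene passed at an adjusted p of 0.01 or less. Fold changes are given as log2 ± an approximate standard error, obtained from the F statistic by dividing the fold change by its square root, with 2 libraries in each condition.

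MEK1ca versus pCIG asked which long-span genes responded to activated MEK1. Of the 300, 43 were deregulated, 32 upregulated and 11 downregulated. Among all genes tested, 6.16% were deregulated, 4.26% up and 1.90% down. The long-span genes tested were upregulated in 10.8% and downregulated in 3.70% of cases. The rises were larger than the falls, as they were in the other genes. The median log2 fold change was 1.5 for upregulated genes (range 0.69 to 3.66), and 26 of the 32 rose at least 2-fold. It was -0.61 for downregulated genes (range -0.49 to -1.10), and 1 of the 11 fell at least 2-fold. In the other genes these medians were 1.30 and -0.80, and 337 of 517 rose and 73 of 227 fell at least 2-fold. The median change over the 297 genes was -0.05 and that of the other genes tested was -0.00, so the rises did not move the whole set. At an unadjusted p below 0.05 there were 114 genes (38.4%, against 25.7% of the other genes tested). The count depended on single libraries. It fell to 22 and 18 when replicate 1 or replicate 2 of pCIG was left out, and was 27 and 45 when replicate 1 or replicate 2 of MEK1ca was. Among all genes tested the share deregulated was 3.17% and 2.56% in the first fits and 3.87% and 6.34% in the others.

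Several genes of low level in control cells rose 4-fold or more with MEK1ca. ENSGALG00000011562, on chromosome 3 (43765827 to 44445298, 679 kb), is the fourth longest of all. Its levels were 3.49 and 4.18 CPM in pCIG, 26.1 and 20.5 CPM in MEK1ca, and 2.77 and 2.98 CPM in MEK1ca + HOXB8. The MEK1ca libraries stood apart from all others, and the log2 fold change in MEK1ca versus pCIG was 2.60 ± 0.20 (adjusted p = 9.8e-06). On chromosome 7 a gene (3031382 to 3433912, 403 kb) had 3.49 and 3.80 CPM in pCIG, 24.1 and 22.9 CPM in MEK1ca, and 6.58 and 7.92 CPM in MEK1ca + HOXB8. It rose with MEK1ca by 2.69 ± 0.17 (adjusted p = 3.77e-06). Here too no library of a condition overlapped with those of another, though genes were chosen for no overlap between the conditions compared.

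The same order, low in pCIG and high in MEK1ca, was seen in genes on 4 further chromosomes. A gene on chromosome 2 (62320937 to 62589197, 268 kb) had 1.61 and 1.35 CPM in pCIG and 8.10 and 7.54 CPM in MEK1ca, and rose by 2.40 ± 0.25 on the log2 scale (adjusted p = 9.83e-05). ENSGALG00000006112, also on chromosome 2 (5408261 to 5613834, 206 kb), had 5.00 and 4.14 CPM in pCIG and 19.5 and 24.9 CPM in MEK1ca, and rose by 2.28 ± 0.21 (adjusted p = 4.07e-05). Each of these genes was at least 3 times as high in either MEK1ca library as in either pCIG library. On chromosome 20 (3189962 to 3615919, 426 kb) a gene rose from 3.003 and 2.22 CPM to 12.4 and 9.16 CPM. On chromosome 1 (11930694 to 12230824, 300.1 kb) a gene rose from 13.9 and 13.1 CPM to 64.6 and 45.3 CPM. The log2 fold changes of both were close, at 2.04 ± 0.23 and 2.03 ± 0.21 (adjusted p = 0.000182 and 0.00028). An abundant gene on chromosome 4 (52775238 to 52982663, 207 kb) had 54.6 and 58.9 CPM in pCIG and 237 and 213 CPM in MEK1ca. Its log2 fold change of 1.99 ± 0.09 had the smallest adjusted p of the long-span genes in this comparison, 3.92e-07. These 7 genes passed the test under every alternative tried.

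The largest fitted change, 3.66 ± 0.61 on the log2 scale (adjusted p = 0.00234), belonged to a gene at the edge of detection on chromosome 5 (39495833 to 39699894, 204 kb). Its levels were 0.0522 and 0.104 CPM in pCIG, 1.19 and 0.823 CPM in MEK1ca, and 0.541 and 0.418 CPM in MEK1ca + HOXB8. It missed the threshold when pCIG replicate 1, pCIG replicate 2 or MEK1ca replicate 1 was left out (adjusted p = 0.0218, 0.0133 and 0.0124). Over its 13 alternatives the adjusted p ran from 1.22e-05 to 0.0218.

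Falls with MEK1ca were called in genes well expressed in control cells. Of the genes tested with means under 2 CPM, 0 of 50 long-span genes and 0 of 2848 others passed as falls, so falls at low levels may go undetected. ENSGALG00000016810, on chromosome 1 (135926352 to 136157713, 231 kb), fell most. Its levels were 105 and 112 CPM in pCIG, 44.0 and 57.1 CPM in MEK1ca, and 46.5 and 56.6 CPM in MEK1ca + HOXB8, so control libraries stood above all others and the other conditions overlapped. The log2 fold change was -1.10 ± 0.14 (adjusted p = 0.000482), and the gene passed under every alternative. On chromosome 24 a gene (451348 to 687741, 236.4 kb) had 28.1 and 34.1 CPM in pCIG, 13.9 and 17.5 CPM in MEK1ca, and 29.7 and 30.1 CPM in MEK1ca + HOXB8. The change was -0.99 ± 0.15 (adjusted p = 0.00117, and 0.0189 without pCIG replicate 2). Thus the MEK1ca libraries alone were low for this gene. The other 6 of the 8 largest falls lay between -0.57 and -0.85 and each lost its call without at least 1 of the pCIG libraries.

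**Figure D3:**
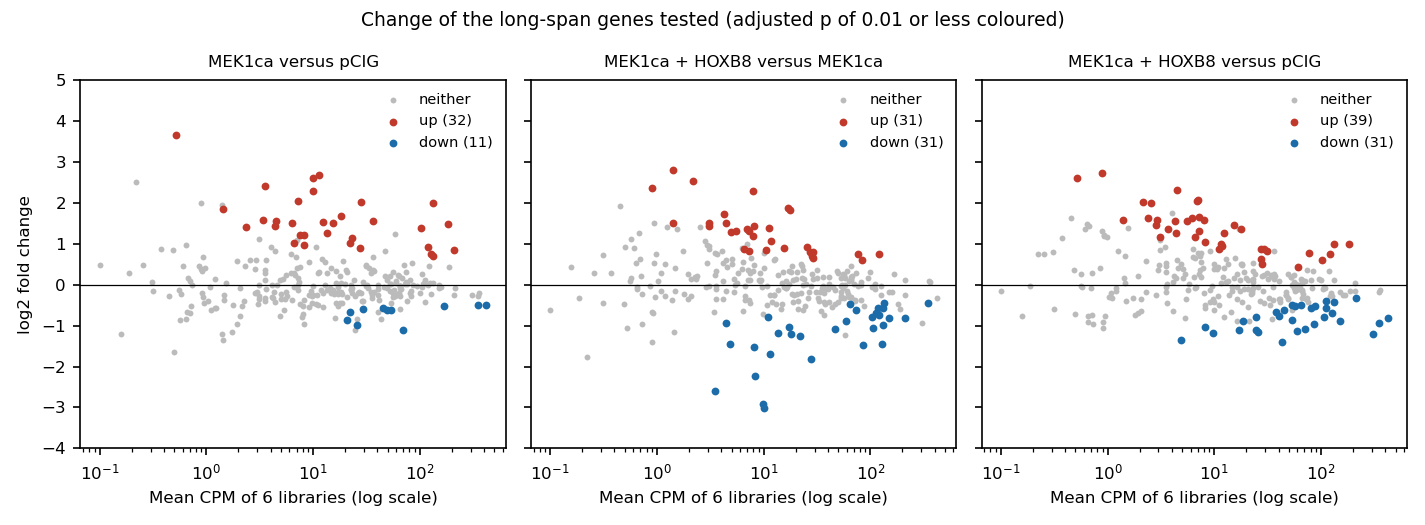
Log2 fold change against mean level (CPM over the 6 libraries, log scale) of the 297 long-span genes tested, in the 3 comparisons. Red points passed at an adjusted p of 0.01 or less as upregulated (32, 31 and 39 genes) and blue points as downregulated (11, 31 and 31 genes). Rises in MEK1ca versus pCIG reach further from 0 than falls.

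MEK1ca + HOXB8 versus MEK1ca asked what the addition of HOXB8 changed in MEK1ca cells. Of the 300, 62 were deregulated, 31 upregulated and 31 downregulated. Among all genes tested, 16.7% were deregulated, 8.74% up and 7.99% down. The long-span genes tested were upregulated in 10.4% and downregulated in 10.4% of cases. The median log2 fold change was 1.31 (range 0.61 to 2.80) for upregulated genes, 19 of which rose at least 2-fold. It was -1.05 (range -0.44 to -3.02) for downregulated genes, 16 of which fell at least 2-fold. Upregulated genes had a median level of 7.96 CPM and downregulated genes of 59.7 CPM, and in the other genes these medians were 6.30 and 86.9 CPM. Over the 297 genes the median change was -0.00, and leaving out replicate 1 or replicate 2 of MEK1ca + HOXB8 made it 0.10 or -0.12. In these fits 22 and 16 genes were upregulated and 24 and 35 downregulated, and among all genes tested 8.31% and 11.9% were deregulated. At an unadjusted p below 0.05 there were 143 genes (48.1%, against 43.6% of the other genes).

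The largest falls on addition of HOXB8 were those of genes named above for their high level in MEK1ca. The comparison shares the MEK1ca libraries with MEK1ca versus pCIG, so the values are given side by side and no overlap is drawn from them. ENSGALG00000011562 fell by 3.02 ± 0.20 on the log2 scale (adjusted p = 6.66e-06), to levels whose difference from pCIG, -0.41 ± 0.19, did not pass the test (adjusted p = 0.131). ENSGALG00000006112 had 3.30 and 2.60 CPM in MEK1ca + HOXB8, both under the pCIG libraries, and fell by 2.91 ± 0.21 from MEK1ca (adjusted p = 1.03e-05). Its difference from pCIG was -0.63 ± 0.21 (adjusted p = 0.0396). The gene on chromosome 2 at 62320937 to 62589197 had 1.39 and 1.20 CPM and fell by 2.59 ± 0.25 (adjusted p = 5.83e-05). These levels overlapped with those of pCIG.

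Other genes kept part of their rise. The gene on chromosome 7 at 3031382 to 3433912 fell by 1.70 ± 0.17 from MEK1ca (adjusted p = 6.4e-05) and remained 0.99 ± 0.17 above pCIG on the log2 scale (adjusted p = 0.0017). The abundant gene on chromosome 4 at 52775238 to 52982663 had 110 and 118 CPM with HOXB8. It fell by 0.98 ± 0.09 from MEK1ca (adjusted p = 4.35e-05) and lay 1.00 ± 0.09 above pCIG (adjusted p = 3.82e-05). For both genes the MEK1ca + HOXB8 libraries thus lay between those of the other conditions. On chromosome 20 the gene at 3189962 to 3615919 had 8.65 and 7.86 CPM. Its change from MEK1ca, -0.38 ± 0.22, did not pass the test (adjusted p = 0.202), while its difference from pCIG, 1.66 ± 0.23, did (adjusted p = 0.000503).

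A further gene went below the control level. On chromosome 2 (10438685 to 10736438, 298 kb) a gene had 6.17 and 6.83 CPM in pCIG, 16.1 and 14.1 CPM in MEK1ca, and 3.18 and 3.20 CPM in MEK1ca + HOXB8. It rose by 1.21 ± 0.18 with MEK1ca, fell by 2.24 ± 0.19 on addition of HOXB8 and lay 1.03 ± 0.18 below pCIG on the log2 scale (adjusted p = 0.00106, 2.12e-05 and 0.00209). All 3 conditions were separated. A long gene on chromosome 13 (4187413 to 4738485, 551 kb) had 98.2 and 75.03 CPM in pCIG, 144 and 104 CPM in MEK1ca, and 41.3 and 48.4 CPM in MEK1ca + HOXB8. It fell by 1.47 ± 0.18 (adjusted p = 0.000778), and leaving out replicate 1 or replicate 2 of MEK1ca + HOXB8 ended the call (adjusted p = 0.0392 and 0.0224, within a range of 8.51e-15 to 0.0392 over 13 alternatives).

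Rises on addition of HOXB8 were seen in genes of low and of moderate level. ENSGALG00000001879, on chromosome 6 (1135083 to 1444647, 310 kb), had 4.93 and 5.49 CPM in pCIG, 2.98 and 3.37 CPM in MEK1ca, and 14.7 and 16.3 CPM in MEK1ca + HOXB8. It rose by 2.29 ± 0.19 over MEK1ca (adjusted p = 2.14e-05) and by 1.57 ± 0.18 over pCIG (adjusted p = 0.000182), and its change in MEK1ca versus pCIG, -0.71 ± 0.19, did not pass (adjusted p = 0.0292). On chromosome 8 a gene (25948005 to 26179911, 232 kb) had 1.17 and 1.08 CPM in pCIG, 0.945 and 0.637 CPM in MEK1ca, and 3.78 and 5.38 CPM in MEK1ca + HOXB8. It rose by 2.54 ± 0.33 over MEK1ca (adjusted p = 0.000318). More abundant was a gene on chromosome 1 (22359460 to 22601087, 242 kb), with 13.7 and 11.01 CPM in pCIG, 7.97 and 10.01 CPM in MEK1ca, and 31.2 and 32.4 CPM in MEK1ca + HOXB8. Its rise over MEK1ca was 1.82 ± 0.16 (adjusted p = 3.66e-05). In all 3 genes the MEK1ca + HOXB8 libraries were the highest.

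The largest rise of this comparison, 2.80 ± 0.40 (adjusted p = 0.000561), belonged to the gene on chromosome 4 at 22250827 to 22516765 described among those expressed in MEK1ca + HOXB8. That of the gene on chromosome 1 at 107601010 to 107978889 was 2.36 ± 0.44 (adjusted p = 0.00257). The first call held under every alternative. The second was lost with loess offsets (adjusted p = 0.0118), without MEK1ca replicate 1 (0.0155), without MEK1ca + HOXB8 replicate 1 (0.0267) and without MEK1ca + HOXB8 replicate 2 (0.0128). A gene on chromosome 1 (54543813 to 54741556, 198 kb) had 29.4 and 31.7 CPM with HOXB8, but its replicates were far apart in pCIG, at 8.39 and 15.6 CPM, and in MEK1ca, at 5.88 and 10.8 CPM. Its adjusted p of 0.00916 became 0.0786 and 0.0829 without MEK1ca + HOXB8 replicate 1 and replicate 2, and the call was also lost without the filter on low counts (0.0224) and with a filter of at least 10 counts over all libraries (0.0126).

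**Figure D4:**
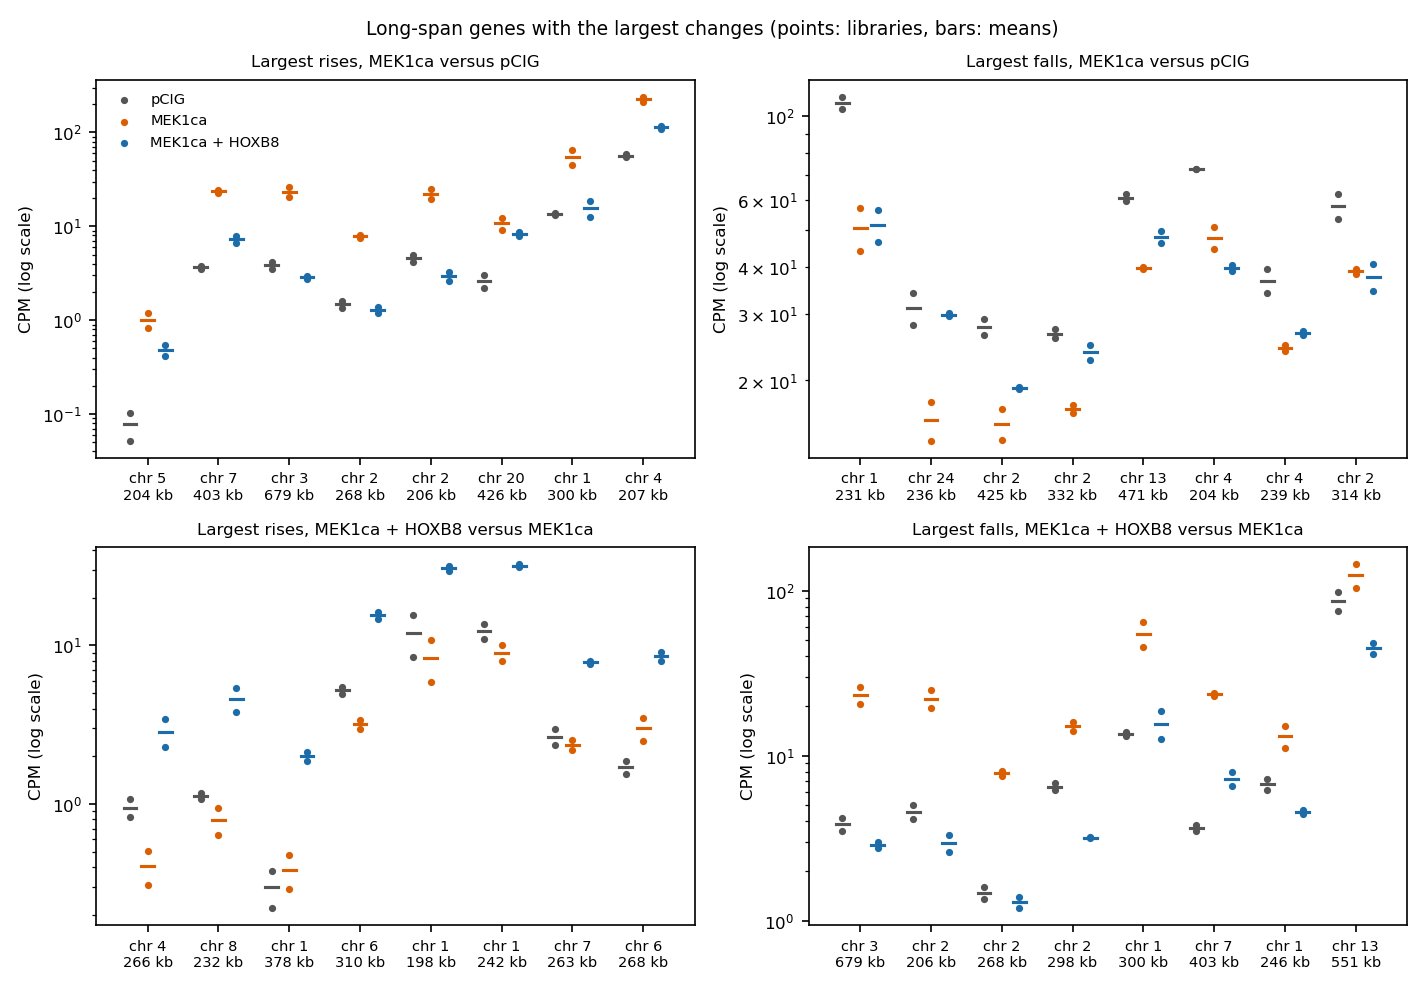
Level (CPM, log scale) in each library of the 8 long-span genes with the largest rise and the 8 with the largest fall in MEK1ca versus pCIG (upper panels) and in MEK1ca + HOXB8 versus MEK1ca (lower panels). Points are libraries, bars are means of 2 libraries, and genes are named by chromosome and span. The 679 kb gene of chromosome 3 goes from 3.49 and 4.18 CPM in pCIG to 26.1 and 20.5 CPM in MEK1ca and 2.77 and 2.98 CPM in MEK1ca + HOXB8.

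MEK1ca + HOXB8 versus pCIG compared cells with both transgenes with control cells. Of the 300, 70 were deregulated, 39 upregulated and 31 downregulated. Among all genes tested, 14.8% were deregulated, 8.91% up and 5.90% down. The long-span genes tested were upregulated in 13.1% and downregulated in 10.4% of cases. The median log2 fold change was 1.31 (range 0.43 to 2.73) in upregulated and -0.81 (range -0.34 to -1.39) in downregulated genes, and 27 of the 39 and 10 of the 31 changed at least 2-fold. Over the 297 genes the median was 0.04. With library size alone as the scaling, the split was 46 up and 22 down, and all genes tested shifted likewise, to 10.6% up and 3.66% down. That scaling moved the median of all genes tested to 0.10 in this comparison and to 0.12 in MEK1ca + HOXB8 versus MEK1ca. With replicate 1 or replicate 2 of pCIG left out, 29 and 28 genes passed, and with replicate 1 or replicate 2 of MEK1ca + HOXB8 left out, 35 and 43 did. The share of all genes tested was 5.99% and 5.05% in the first fits and 7.72% and 9.9% in the others. At an unadjusted p below 0.05 there were 146 genes (49.2%, against 40.7% of the other genes).

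The largest rises over pCIG included genes highest in MEK1ca + HOXB8. A gene on chromosome 6 (23968010 to 24235717, 268 kb) had 1.55 and 1.87 CPM in pCIG, 2.51 and 3.504 CPM in MEK1ca, and 8.01 and 9.14 CPM in MEK1ca + HOXB8. On chromosome 3 a gene (57586334 to 57923906, 338 kb) had 3.24 and 2.94 CPM, 4.87 and 5.02 CPM, and 12.5 and 12.9 CPM. Neither passed in MEK1ca versus pCIG (adjusted p = 0.0553 and 0.0367), and their rises over pCIG were 2.32 ± 0.25 and 2.04 ± 0.19 (adjusted p = 0.00012 and 4.35e-05). Both held under every alternative. Another gene of chromosome 3 (33669293 to 33956337, 287 kb) had 2.52 and 3.23 CPM in pCIG, 7.56 and 4.67 CPM in MEK1ca, and 10.4 and 13.8 CPM in MEK1ca + HOXB8, a rise over pCIG of 2.07 ± 0.27 (adjusted p = 0.000398). It did not pass in MEK1ca versus pCIG either (1.09 ± 0.27, adjusted p = 0.0228). In these 3 genes the libraries of the conditions did not overlap, although the difference between MEK1ca and pCIG did not pass the test. In MEK1ca versus pCIG the same was true of 57.4% of the other genes tested, so no difference is read from it.

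Falls against pCIG included some of the most abundant long-span genes. A gene on chromosome 3 (62486816 to 62723122, 236.3 kb, mean 109 TPM) had 462 and 476 CPM in pCIG, 328 and 336 CPM in MEK1ca, and 246 and 244 CPM in MEK1ca + HOXB8. It changed by -0.50 ± 0.07 with MEK1ca, by -0.44 ± 0.07 on addition of HOXB8 and by -0.94 ± 0.07 against pCIG (adjusted p = 0.00105, 0.00128 and 1.82e-05). The first of these calls was lost without pCIG replicate 1, pCIG replicate 2 or MEK1ca replicate 1 (adjusted p = 0.0121, 0.0219 and 0.0153), the second without MEK1ca replicate 2 (0.0109), and the last held throughout. The shortest gene of the 300, on chromosome 10 (1319370 to 1515182, mean 111 TPM), had 546 and 561 CPM in pCIG, 383 and 408 CPM in MEK1ca, and 298 and 335 CPM in MEK1ca + HOXB8. Its change with MEK1ca was -0.49 ± 0.08 (adjusted p = 0.0026), a call lost without pCIG replicate 1, pCIG replicate 2 or MEK1ca replicate 1 (0.0220, 0.0387 and 0.0335). Its change against pCIG was -0.81 ± 0.08 (adjusted p = 8.39e-05), and its change on addition of HOXB8, -0.32 ± 0.08, did not pass (adjusted p = 0.0131). In both genes the libraries of the 3 conditions did not overlap, highest in pCIG and lowest in MEK1ca + HOXB8. In MEK1ca + HOXB8 versus MEK1ca 69.5% of the other genes tested did not overlap either. For the gene on chromosome 10 no difference between these 2 conditions is therefore read from it.

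A gene on chromosome 11 (15430489 to 15845338, 415 kb) stood low in both libraries of MEK1ca + HOXB8. Its levels were 21.9 and 20.6 CPM in pCIG, 21.2 and 19.6 CPM in MEK1ca, and 10.4 and 9.42 CPM in MEK1ca + HOXB8. The change was -1.05 ± 0.14 from MEK1ca and -1.10 ± 0.14 from pCIG (adjusted p = 0.000354 and 0.000268), and the change in MEK1ca versus pCIG was -0.06 ± 0.14 (adjusted p = 0.833). The largest fall against pCIG, -1.39 ± 0.18 (adjusted p = 0.000536), was that of a gene on chromosome 2 (111851189 to 112072073, 220.9 kb). Its levels were 58.2 and 76.7 CPM in pCIG, 31.2 and 44.1 CPM in MEK1ca, and 25.3 and 26.0 CPM in MEK1ca + HOXB8. It missed the threshold without either MEK1ca + HOXB8 library (adjusted p = 0.0237 without replicate 1 and 0.0211 without replicate 2).

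Those of the 10 longest genes that passed in MEK1ca versus pCIG all rose. In MEK1ca + HOXB8 versus pCIG the calls among them went in both directions. The longest, on chromosome 3 (88949756 to 89752149, 802 kb, 64 exon segments), had 1.15 and 0.960 CPM in pCIG, 2.95 and 2.65 CPM in MEK1ca, and 3.63 and 2.87 CPM in MEK1ca + HOXB8. It rose over pCIG by 1.41 ± 0.28 in MEK1ca (adjusted p = 0.00743) and by 1.62 ± 0.28 in MEK1ca + HOXB8 (adjusted p = 0.00192). The first call did not hold without pCIG replicate 1 (0.0277), pCIG replicate 2 (0.0659), MEK1ca replicate 1 (0.0335) or MEK1ca replicate 2 (0.0124), nor in a fit of the 4 libraries alone (0.016). The second was lost without pCIG replicate 1 (0.0104), pCIG replicate 2 (0.0205) or MEK1ca + HOXB8 replicate 1 (0.0197). The third longest, on chromosome 1 (114233667 to 114932830, 699 kb, 65 exon segments), was abundant, with 104 and 110 CPM in pCIG, 178 and 169 CPM in MEK1ca, and 114 and 120 CPM in MEK1ca + HOXB8. It rose by 0.69 ± 0.08 with MEK1ca and fell by 0.57 ± 0.08 on addition of HOXB8 (adjusted p = 0.00028 and 0.00066), and its difference from pCIG was 0.12 ± 0.08 (adjusted p = 0.289).

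Further down this list the spread between replicates limited the comparison. The sixth longest, on chromosome 2 (8785742 to 9406733, 621 kb), had 388 and 422 CPM in pCIG, 268 and 411 CPM in MEK1ca, and 158 and 195 CPM in MEK1ca + HOXB8. Its MEK1ca replicates were far apart, and of the 3 comparisons it passed in MEK1ca + HOXB8 versus pCIG, with -1.20 ± 0.20 (adjusted p = 0.00632). This call was lost without any 1 of the 4 libraries compared (adjusted p = 0.0211 to 0.132), without the filter on low counts (0.0186) and with the crossed replicate block (0.0524). The ninth longest, on chromosome 7 (31350097 to 31932431, 582 kb, 92 exon segments), is among the genes with an overlapping exon. It had 2.14 and 1.35 CPM in pCIG, 5.08 and 5.41 CPM in MEK1ca, and 3.43 and 3.16 CPM in MEK1ca + HOXB8, and rose with MEK1ca by 1.59 ± 0.27 (adjusted p = 0.00287, and 0.0302 without pCIG replicate 2). Those at ranks 2, 5, 7, 8 and 10 by span passed in no comparison.

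The 100 longest of the 300 (308 kb or more) had calls of the same order in number as the 100 of middle length and the 100 shortest. Their direction on addition of HOXB8 differed. In MEK1ca versus pCIG, 12 of the longest rose and 4 fell, 10 and 1 of those of middle length did, and 10 and 6 of the shortest. On addition of HOXB8 to MEK1ca the counts were 7 and 13, 11 and 12, and 13 and 6. Falls outnumbered rises in the longest (13.0% against 7.0% of those tested), and rises outnumbered falls in the shortest (13.1% against 6.06%). Among all genes tested, 8.74% rose and 7.99% fell. In the next 300 genes by span falls again outnumbered rises, so among these longest genes the balance did not change steadily with span. Over the 10 classes of all genes outside Z and W, it did shift with span. Rises outnumbered falls in the classes from 595 to 13820 bases (11.3% against 3.87% in the shortest of these). Falls outnumbered rises in every class from 13823 bases up (12.9% against 9.11% in the longest). In the class under 595 bases both were 0.509%. In MEK1ca + HOXB8 versus pCIG the counts were 10 and 10, 14 and 9, and 15 and 12. The next 300 genes by span, from 131222 to 195592 bases, had 26 rises and 14 falls in MEK1ca versus pCIG among 286 tested. On addition of HOXB8 they had 35 rises and 44 falls, and against pCIG 34 and 30. The counts of the 300 longest, 32 and 11, 31 and 31, and 39 and 31, are of the same order. This is a description, with no test.

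The share of calls also varied with abundance. Of the 31 long-span genes at 100 CPM or more, 7 (22.6%) rose and 3 (9.68%) fell with MEK1ca, against 3.89% rising and 2.09% falling among the other genes of that level. On addition of HOXB8, 1 of the 31 (3.23%) rose and 12 (38.7%) fell, against 2.77% rising and 18.1% falling among the others. Against pCIG, 4 (12.9%) rose and 10 (32.3%) fell, against 2.97% and 13.3% among the others. At the other end, 50 long-span genes were tested with means under 2 CPM. On addition of HOXB8, 3 of them (6.0%) rose and 0 fell, against 11.97% rising among the other genes under 2 CPM. In MEK1ca versus pCIG 2 (4.0%) rose, against 1.65% of the others, and in MEK1ca + HOXB8 versus pCIG 3 (6.0%) rose, against 12.1%. The groups are small, and these shares are given as a description with no test.

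**Figure D5:**
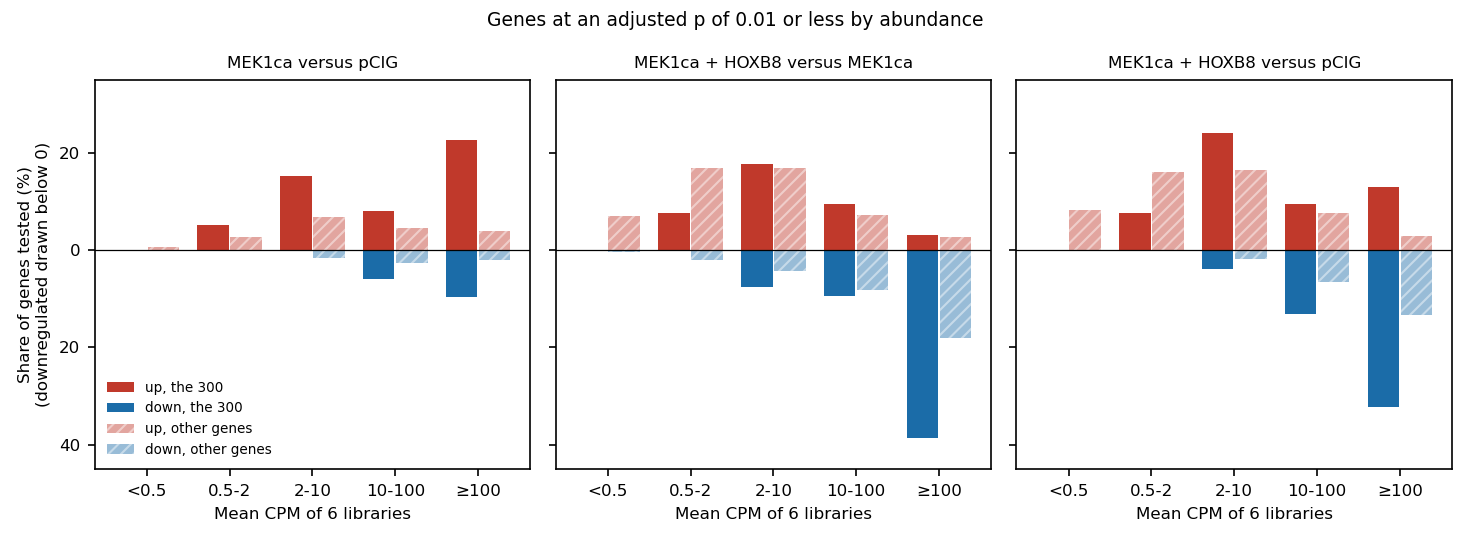
Share of genes tested (%) that passed at an adjusted p of 0.01 or less, upregulated above 0 and downregulated below 0, by mean level (CPM over the 6 libraries), for the long-span genes (solid) and the other genes not on Z or W (hatched). In the class of 100 CPM or more, 22.6% of 31 long-span genes rose in MEK1ca versus pCIG and 38.7% fell in MEK1ca + HOXB8 versus MEK1ca.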

How the data were processed

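RNA-Seq of GFP-sorted neural tube cells was analysed in 3 conditions with 2 libraries each. Per the labels (the submitters' processing notes), the authors used Subread for alignment to galGal4 and featureCounts for counting per Ensembl gene. Their deposited table holds raw counts per gene, with exon coordinates and, as another unit, the exonic length in bases. Versions of these tools, the strand setting and how reads with several alignments were handled are not given in the sources used here. The authors' tables of 2 comparisons, made with DESeq2 or DESeq, hold their own fold changes, standard errors, statistics and p-values and were not used. No column was left unmapped to a library.

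The deposited counts were analysed with edgeR 4.0.16 (limma 3.58.1, R 4.3.3), with DESeq2 1.42.0 as an alternative, and tables were made in Python 3.11.15 with pandas 2.3.3. Of 17108 genes, 13582 passed filterByExpr by group. Counts were scaled by TMM, and edgeR's quasi-likelihood model, with 1 mean per condition, was fitted robustly to all 6 libraries. Deregulated genes are those whose adjusted p did not exceed 0.01. In place of a standard error, which this F test does not return, the log2 fold change divided by the square root of F is printed, without sign. TPM was computed from counts and exonic length. Coordinates are 1-based. The script was tested on simulated data.

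The members and lists were chosen with earlier results of these data known. Genes to describe were the 10 longest, the 10 highest in TPM, and in each comparison the 8 largest rises and 8 largest falls that passed at 1 CPM or more without overlap between libraries. From these the 4 identifiers printed were picked after their values were seen, as were the examples described in full. Lists of neuronal, adhesion and other pathway genes and cell type markers, fixed by symbol, were not used, because the identifiers could not be paired with symbols: the RefSeq table at hand matched 0 of them. For the same reason no sequence is printed.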

Additional observations from a re-analysis of the deposited data

How the results depend on the processing

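The number of deregulated long-span genes moved with the threshold, the tool, the scaling and the libraries used. At an adjusted p of 0.05 it was 67 (22 down) in MEK1ca versus pCIG, 114 (57 up, 57 down) in MEK1ca + HOXB8 versus MEK1ca and 117 (67 up, 50 down) in MEK1ca + HOXB8 versus pCIG. Of the other genes outside Z and W, 12.4%, 32.3% and 29.3% passed at that threshold. DESeq2 called 64 (20 down), 95 (49 down) and 103, and 10.2%, 22.3% and 20.2% of all genes it tested. Loess offsets as the scaling in edgeR gave 43, 56 and 56 calls, and 5.95%, 12.8% and 11.4% of all genes tested. With the 200 longest spans the counts were 27 (5 down), 43 (18 up) and 43 (24 up, 19 down), and with the 500 longest 67 (49 up, 18 down), 118 (57 up, 61 down) and 109 (62 up, 47 down); fewer or more genes were then counted. Leaving out 1 library gave 18 to 45 deregulated (15 to 36 up, 3 to 9 down) in MEK1ca versus pCIG, 46 to 54 (16 to 22 up, 24 to 35 down) in MEK1ca + HOXB8 versus MEK1ca and 28 to 43 (15 to 22 up, 11 to 23 down) in MEK1ca + HOXB8 versus pCIG, with the lone library of a condition assumed to vary like the others. Low genes were 11 with 0.5 CPM as the limit. The 200 longest held 20 low and 1 silent, the 500 longest 441 expressed, 52 low and 7 silent. Apart from the library a setting leaves out or the genes it adds, the cause was not tested. Of 59 single-gene results, 30 kept their call under every alternative and 0 reversed. Counts of MEK1ca replicate 2, halved, left 43 of 43, 61 of 62 and 70 of 70 calls in place.

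Deviations of libraries with the same replicate number correlated at 0.128, -0.113 and -0.0270 across 13582 genes, so the numbers were not taken as pairs. With the replicate block the counts were 51, 66 and 74, and 6.78%, 16.0% and 14.1% of all genes tested passed. With the numbers of MEK1ca + HOXB8 crossed, an alternative added after seeing the data, 89 passed in MEK1ca + HOXB8 versus pCIG. Of all genes tested, 20.4% passed in that fit. Without the 9 genes whose exons overlap another gene, also added later, 2 calls were lost in each comparison. Counts near 0 limit what can be said of the 3 genes not tested.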
